A study of Mus musculus with 18 samples.

Results

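The 10 genes described here are markers and working parts of the fat cell (Adipoq, Plin1, Cidec, Lep, Cfd, Aqp7, Fabp4, Cd36, Lpl and Pparg), chosen by name among 57126 genes measured in 18 mouse mammary tumors. Their transcripts were abundant in 1 tumor, JM833-T1, at an intermediate level in 2 others, JM833-T2 and YZ4, and low in most of the rest. JM833-T1 held 82.4% of the Adipoq signal summed over the 18 tumors and was the highest tumor for 10 of the 10 genes. With Adipoq, Plin1 and Cidec each required at 10 CPM (counts scaled to a common library size) or more, 3 of 18 tumors carried the adipocyte signal: 1 of 7 MaP R172H/- tumors, 0 of 5 MaP R245W/- tumors and 2 of 6 MaP -/- tumors. The 2 MaP -/- tumors came from a single mouse.

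The study asked how p53R172H and p53R245W, missense forms of the tumor suppressor p53, shape mammary tumors compared with loss of p53. Female mice of a BALB/c by C57BL/6J hybrid background received adenovirus carrying Cre recombinase (Ad-Cre) in the mammary ducts, which left the ductal epithelium with Trp53 R172H over a null allele (MaP R172H/-, 7 tumors of 7 mice), Trp53 R245W over a null allele (MaP R245W/-, 5 tumors of 5 mice) or no Trp53 (MaP -/-, 6 tumors of 4 mice). Cells other than the ductal epithelium, fat cells included, kept wild-type Trp53 in all 3 groups. The Rosa26LSL-TdTomato/+ reporter was present in 3 MaP R172H/- and 3 MaP R245W/- tumors and in 0 MaP -/- tumors. Pieces of primary tumor, taken from mice with an advanced tumor burden, gave ribosomal RNA-depleted stranded libraries, sequenced on a HiSeq instrument for MaP R172H/- and on a NovaSeq instrument for the other 2 groups. In the study's list of tumors the MaP R172H/- tumors were luminal B or HER2-enriched, and those of the other 2 groups were triple-negative. The instrument, this difference in subtype and the R172H allele cannot be told apart. Tumors are named by mouse, with T1 for the left and T2 for the right side where a suffix is given, although the column of JM779-T1 carried the mark of a right-side tumor and the study's list of tumors marks the T2 tumors of mice JM779 and JM836 as the sequenced ones. The columns of mouse JM833 carried T1 and T2 with no mark of side. Both tumors of that mouse were listed as metaplastic poorly differentiated carcinomas, the only ones in the list, and its latency was the longest.

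Total counts were between 23113578 and 37365062 per tumor, so 3 counts, the most that a count of 0 allows, corresponded to between 0.0860 and 0.135 CPM (counting error only). Trp53 itself was measured at a median of 12.2 CPM (9.43 to 21.6) in MaP -/- tumors, 45.8 CPM (10.8 to 50.3) in MaP R172H/- tumors and 27.1 CPM (9.09 to 59.0) in MaP R245W/- tumors. The mitochondrial share of counts ranged from 1.33% to 3.79%, and JM833-T1, at 2.19%, lay inside that range. Whether the tumors of a group other than those of mice JM663 and JM833 share any source beyond genotype is not stated, and p-values measure the spread between these tumors.

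A white fat cell stores triglyceride in a single large lipid droplet and secretes hormones into the blood. The nuclear receptor PPARγ, product of Pparg, works with C/EBP factors to switch on the genes that make a cell take up, store and release fat, and most of the genes below are known PPARγ targets. The mammary gland grows inside a fat pad, so fat cells are normal neighbours of a mammary tumor. Among the 10 genes, 6 were treated here as restricted to fat cells: the hormones adiponectin (Adipoq) and leptin (Lep), the secreted protease adipsin, or complement factor D (Cfd), the lipid droplet coats perilipin 1 (Plin1) and CIDEC (Cidec), and, with less ground, the glycerol channel aquaporin 7 (Aqp7). The fatty acid carrier Fabp4, the fatty acid receptor Cd36, the triglyceride-cleaving lipoprotein lipase (Lpl) and Pparg are also made by capillary endothelium, macrophages or muscle.

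The genes lie apart in the genome. In GRCm39, the build of the counts, Adipoq spans chr16:22964106-22976810 on the plus strand, Plin1 chr7:79369966-79382718 on the minus strand, Cidec chr6:113400691-113412721 on the minus strand, Lep chr6:29060216-29073877 on the plus strand and Cfd chr10:79726668-79728496 on the plus strand. Aqp7 spans chr4:41032835-41048211, Fabp4 chr3:10268785-10273737 and Cd36 chr5:17986432-18094067, all on the minus strand, and Lpl chr8:69284603-69360100 and Pparg chr6:115337675-115468268 are on the plus strand. The counts sum reads over each whole gene. Lep, Cidec and Pparg share chromosome 6, and no 2 of the 10 genes overlap.

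RefSeq promoter windows, 250 bases before to 50 bases after a transcription start in GRCm38.p6, were held for 8 of the 10 genes (12 windows); Fabp4 and Lpl had none. They were searched on both strands for AGGTCA repeated after 1 base, the element PPARγ binds (up to 2 mismatches), for the C/EBP palindrome TTGCGCAA (up to 1 mismatch) and for TATAAA. Below is 1 stretch for each gene with a C/EBP or AGGTCA match, shown because C/EBP factors and PPARγ are known to act on fat cell genes. Their part in these tumors was not tested. Each is read 5′ to 3′ on the strand of the gene, with the match in capitals.

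Lep, chr6:29060120-29060219, plus strand: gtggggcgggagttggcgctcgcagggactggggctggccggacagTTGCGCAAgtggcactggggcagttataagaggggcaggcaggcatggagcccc

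Plin1, chr7:79732781-79732880, minus strand: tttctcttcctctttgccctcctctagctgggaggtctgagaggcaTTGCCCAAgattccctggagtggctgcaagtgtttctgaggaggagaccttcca

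Cidec, chr6:113434909-113435008, minus strand: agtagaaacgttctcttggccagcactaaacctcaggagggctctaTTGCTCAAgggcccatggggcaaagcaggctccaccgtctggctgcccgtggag

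Aqp7, chr4:41048134-41048238, minus strand: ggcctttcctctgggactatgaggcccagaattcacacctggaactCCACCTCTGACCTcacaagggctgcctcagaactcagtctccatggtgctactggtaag

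Cd36, chr5:17835901-17836005, minus strand: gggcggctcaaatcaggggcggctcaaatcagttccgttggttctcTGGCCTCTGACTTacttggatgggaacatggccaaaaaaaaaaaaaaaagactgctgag

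The C/EBP palindrome stood complete in Lep, at positions -55 to -48 from the start, and with 1 mismatch in Plin1 (-58 to -51) and Cidec (-198 to -191). AGGTCA repeats matched with 2 mismatches, on the opposite strand, in Aqp7 (-56 to -44) and Cd36 (-63 to -51). A further Aqp7 match, not shown, lay at -101 to -89 of its second window, and TATAAA was found in a Pparg window, at -29 to -24 on the opposite strand. The shares of all 32851 windows with a match were 5.92% for the C/EBP palindrome, 3.86% for the AGGTCA repeat and 13.6% for TATAAA, against 3, 3 and 1 of the 12 windows of these genes; 2 of the 3 windows with an AGGTCA repeat are overlapping Aqp7 windows that share the site shown. The windows of Adipoq and Cfd held none of the 3 motifs, and no match overlapped a match of another motif. A match is a run of letters, and binding was not measured.

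The secreted products come first. Adiponectin, which sensitizes tissues to insulin, was at 434 CPM in JM833-T1, 35.2 CPM in JM833-T2, 3.89 CPM in JM663-T1, 3.43 CPM in JM663-T2, 1.10 CPM in JM779-T1 and 0.0753 CPM in JM836-T1. Among MaP R172H/- tumors Adipoq was at 32.8 CPM in YZ4, 9.75 CPM in YZ11, 0.861 CPM in YZ6, 0.353 CPM in YZ3, 0.173 CPM in YZ2, 0.164 CPM in YZ10 and 0.0440 CPM in YZ7. In MaP R245W/- tumors it was at 3.55 CPM in JM1233, 0.736 CPM in JM1126, 0.172 CPM in RM0014, 0.124 CPM in JM1564 and 0.0382 CPM in JM1133. The groups overlapped: each had a tumor below 0.1 CPM, and JM833-T1 lay 12.3-fold above the next tumor.

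Leptin, the hormone that reports fat stores to the brain, was at 208 CPM in JM833-T1, 20.1 CPM in JM833-T2, 7.92 CPM in YZ4 and 2.35 CPM in YZ11, and at 0.593 CPM or less in the other 14 tumors. No count of Lep was found in 4 tumors, and 9 tumors had 3 counts or fewer. Adipsin, which starts the alternative complement pathway, was read at 986 CPM in JM833-T1, 248 CPM in YZ4, 88.5 CPM in JM833-T2 and 59.7 CPM in YZ11, and its lowest value was 0.191 CPM in JM1133. For Cfd, YZ4 ranked above JM833-T2, whereas for Lep the order was the opposite.

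The droplet proteins followed the hormones. Perilipin 1, which guards the stored fat from lipases, was at 292 CPM in JM833-T1, 34.2 CPM in YZ4, 21.9 CPM in JM833-T2 and 8.71 CPM in YZ11. It was below 1 CPM in the 5 MaP R245W/- tumors, with 0 counts in 3 of them, and it had 0 counts in JM836-T1. Cidec, which fuses small droplets into large ones, was at 312 CPM in JM833-T1, 43.6 CPM in YZ4, 29.4 CPM in JM833-T2 and 11.3 CPM in YZ11, against at most 3.49 CPM in the other 14 tumors. Aqp7, which lets out the glycerol left by lipolysis, was the scarcest of the 10 genes per length (given below), at 40.5 CPM in JM833-T1, 4.62 CPM in JM833-T2, 1.39 CPM in YZ4 and at most 0.484 CPM elsewhere. In YZ7, Aqp7 had 11 counts beside 1 count of Adipoq. Aqp7 did not pass the filter on low counts in any of the 3 comparisons below, which therefore tested 9 of the 10 genes.

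The fatty acid handling genes had a floor in every tumor, on which the same tumors stood out. Fabp4 was at 1939 CPM in JM833-T1, 224 CPM in JM833-T2 and 116 CPM in YZ4, and between 6.13 and 63.6 CPM in the other 15. Cd36 was at 1043, 137 and 53.7 CPM in those 3 tumors in the same order, and between 3.15 and 31.7 CPM in the other 15. Lpl, which frees fatty acids from circulating fat, was at 1203, 220 and 103 CPM, against 8.90 to 48.2 CPM. These genes were found in every library, including those with 0 counts of Plin1 or Lep, and in bulk tissue a difference in the number of fat cells cannot be told apart from one in RNA per cell. Pparg had the narrowest span, with 42.8 CPM in JM833-T1, 9.34 CPM in YZ4, 8.54 CPM in JM833-T2 and 7.39 CPM in JM1126, down to 0.835 CPM in JM1564.

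**Figure D1:**
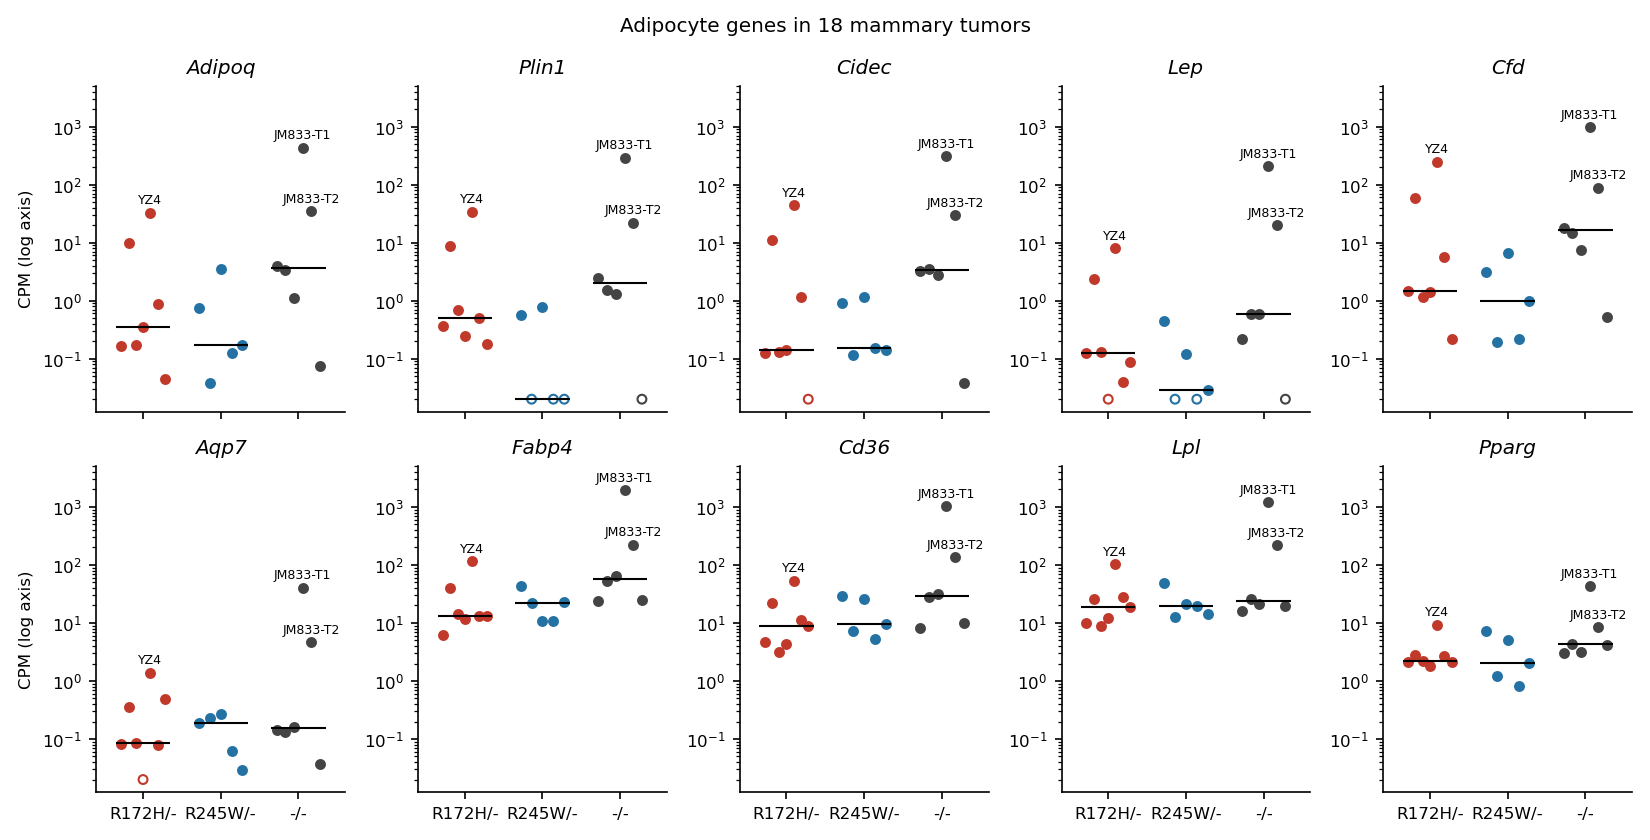
CPM (log axis) of each of the 10 genes in 7 MaP R172H/-, 5 MaP R245W/- and 6 MaP -/- tumors, 1 point a tumor; black lines are group medians and open points at the foot of a panel are tumors with 0 counts. JM833-T1 is the top point in every panel, and JM833-T2 and YZ4 follow it, while the remaining tumors of the 3 groups overlap.

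The same tumors led from gene to gene. Behind JM833-T1, JM833-T2 took place 2 for 6 of the genes and place 3 for 4, YZ4 took place 2 for 4 and place 3 for 6, and YZ11 was at place 4 or better for 5. The 10 genes summed to 6499 CPM in JM833-T1 (0.650% of its counts), 789.6 CPM in JM833-T2, 650.1 CPM in YZ4 and 182.9 CPM in YZ11, and the lowest sum was 25.1 CPM in YZ10. In the MaP R245W/- group the highest sum was 134.3 CPM, in JM1126. The share of the 18-tumor sum held by JM833-T1 was 86.4% for Lep, 82.9% for Aqp7, 79.9% for Plin1, 76.1% for Cidec, 73.1% for Fabp4, 72.3% for Cd36, 68.3% for Cfd and 65.8% for Lpl, and it was 40.6% for Pparg. YZ11 lay just outside the 10 CPM rule, at 9.75 CPM of Adipoq and 8.71 CPM of Plin1, and the weakest values inside it were 21.9 CPM of Plin1 and 29.4 CPM of Cidec in JM833-T2. A rule of 1 CPM counted 7 of 18 tumors (2 MaP R172H/-, 0 MaP R245W/- and 5 MaP -/-), and a rule of 100 CPM counted 1, JM833-T1.

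The T1 and T2 tumors of mouse JM833 were not alike. There T1 exceeded T2 13.3-fold for Plin1, 12.3-fold for Adipoq, 11.1-fold for Cfd, 8.64-fold for Fabp4 and 5.01-fold for Pparg, with a median of 9.57-fold over the 10 genes. In mouse JM663, the other mouse with both tumors sequenced, the ratios of T1 to T2 ran from 0.296 for Cd36 to 1.63 for Plin1, with a median of 0.801. With 1 library a tumor, these ratios have no replicate check.

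Per length, dividing CPM by the kilobases of exon in each gene, the order of levels by median over 18 tumors was Fabp4 (4.72 CPM per kb), Cfd (4.61), Lpl (1.69), Cd36 (0.844), Pparg (0.417), Adipoq (0.351), Cidec (0.334), Plin1 (0.0996), Lep (0.0377) and Aqp7 (0.0303). The length joined the exons of all annotated transcripts of a gene. For Fabp4 it was 4953 bases, the whole span of the gene, beside 964 bases for Cfd, 12624 for Cd36 and 12225 for Lpl. The order of the genes, here and in JM833-T1, depends on this length, and no other length was tried. Some neighbours in that order could not be separated: Fabp4 exceeded Cfd in 9 of 18 tumors, Pparg exceeded Adipoq in 10, and Plin1 exceeded Lep and Lep exceeded Aqp7 in 11 each. Others were steadier, with Cd36 above Pparg in 17 of 18 tumors and Adipoq above Cidec in 16. In JM833-T1 the order per length was another one: Cfd (1023 CPM per kb) came before Fabp4 (391), Adipoq (190) moved from place 6 to place 3, and Pparg (6.14) moved from place 5 to place 10.

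The genes fell into a tight and a looser set by their pattern over the 18 tumors. Adipoq, Plin1, Cidec, Lep and Cfd had Spearman correlations of CPM between 0.815 and 0.973 over their 10 pairs (n = 18 tumors). Fabp4, Cd36, Lpl and Pparg had 0.688 to 0.917 over their 6 pairs, the 20 pairs between the sets had 0.610 to 0.789, and Aqp7 had 0.525 to 0.727 with the other 9. The first set lay above all pairs between the sets, and the second set overlapped them. Fabp4, for example, was at 0.744 with Lep and 0.688 with Lpl. The points share the libraries and their depth, and the 3 tumors above stand at the top for every gene, so these values are a description.

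Outside the 10 genes, the patterns most like Adipoq among 22472 genes were those of Pck1 (Spearman 0.954, n = 18), the enzyme that makes the glycerol backbone of fat in adipocytes, Tmem45b (0.942), A530016L24Rik, Plin4, which coats lipid droplets, Paqr9, Klb, the co-receptor for FGF21, Gm16580, 1500035N22Rik, Ankef1 and Cyp2e1 (0.837). Of these 10, 9 were highest in JM833-T1. The patterns most like Fabp4 were those of Wfdc21 (0.831), Mmd, Lrmda, Gm10851, Gm8818, E230013L22Rik, Ptgir, the prostacyclin receptor, Gm56986, Dgat2, which makes triglyceride, and 4833407H14Rik (0.775), of which 3 were highest in JM833-T1. The 2 lists had no gene in common in these ranks.

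The ratios among the fat cell genes were not the same in every tumor that had them. In JM833-T1 there were 2.27 counts of Cfd per count of Adipoq (exact 95% interval 2.23 to 2.32, counting error only) and in JM833-T2 2.52 (2.34 to 2.71). In YZ4 the ratio was 7.56 (7.08 to 8.09) and in YZ11 6.12 (5.30 to 7.10). JM663-T1 at 4.62 (3.74 to 5.75) and JM663-T2 at 4.33 (3.49 to 5.41) lay between, and JM1233, the 1 MaP R245W/- tumor with 100 counts of Adipoq, was at 1.83 (1.46 to 2.31). For adipsin the intervals of the tumors of mouse JM663 overlapped and those of mouse JM833 did not. The 2 MaP R172H/- tumors had the highest ratios at that depth, but the interval of YZ11 overlapped those of both JM663 tumors. Below that depth, the MaP -/- tumor JM779-T1, with 34 counts of Adipoq, was at 6.79 (4.73 to 10.05).

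Leptin gave another order. It stood at 0.481 counts per count of Adipoq (0.467 to 0.495) in JM833-T1 and 0.571 (0.515 to 0.632) in JM833-T2. The ratio was 0.241 in YZ4 (0.209 to 0.278) and in YZ11, and lower in JM663-T2, at 0.173 (0.0987 to 0.287), JM663-T1, at 0.0561, and JM1233, at 0.0336 (0.00901 to 0.0883). Plin1 per count of Adipoq was 1.04 in YZ4, 0.894 in YZ11, 0.673 in JM833-T1 and 0.624 in JM833-T2. Fabp4 per count of Adipoq was between 3.01 and 6.38 in JM1233, YZ4, YZ11, JM663-T1 and both JM833 tumors, and 15.5 (12.7 to 19.1) in JM663-T2; in JM1133, where Adipoq had 1 count, it was 583. The HiSeq instrument goes with the MaP R172H/- tumors, and its part in the ratios was not tested.

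**Figure D2:**
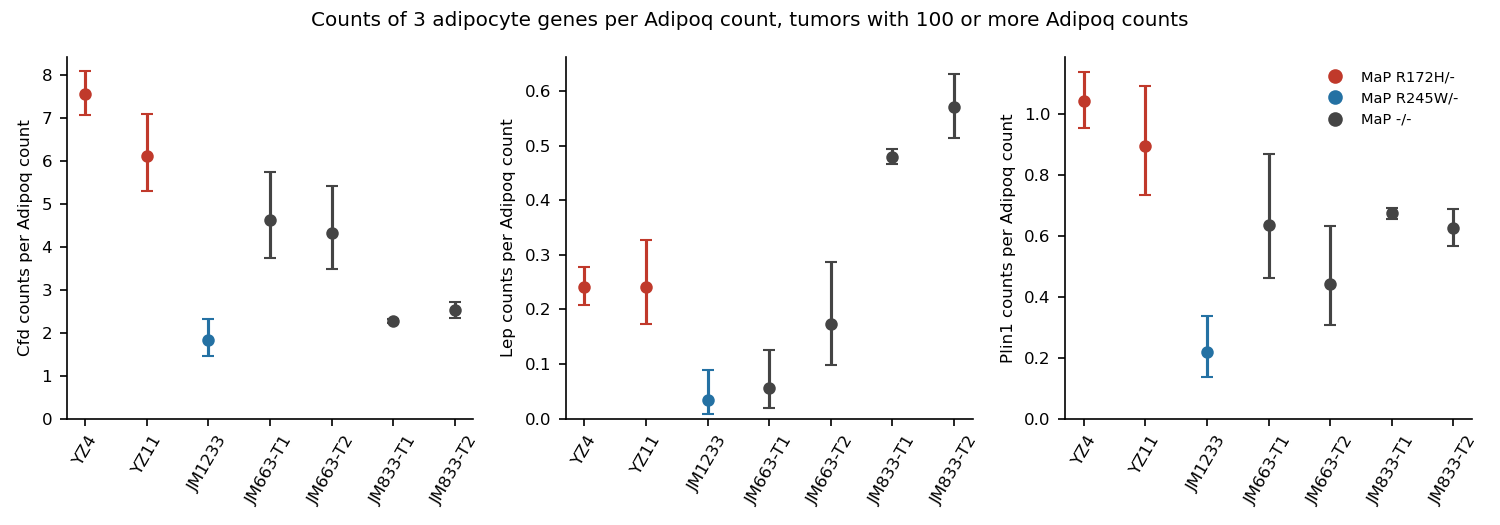
Counts of Cfd, Lep and Plin1 per count of Adipoq (linear axes from 0) in the 7 tumors with 100 or more Adipoq counts; bars are exact 95% intervals for counting error. Cfd is highest in YZ4 and YZ11 at 7.56 and 6.12, while Lep is highest in the JM833 tumors at 0.481 and 0.571.

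Between groups, no fat cell gene passed the test (edgeR quasi-likelihood, Benjamini-Hochberg FDR at most 0.05 over all genes tested and an absolute log2 fold change of 1 or more). In MaP R172H/- against MaP -/- tumors 0 of 9 genes were called, where 5.02% of 20954 genes were. Each of the 9 had a log2 fold change below 0, from -4.60 ± 1.89 (SE) for Lep to -1.70 ± 0.679 for Pparg, with a median of -3.04 against 0.0027 over all genes. Fabp4, at -3.62 ± 1.13 (edgeR FDR = 0.0657), and Cd36, at -3.73 ± 1.17 (edgeR FDR = 0.0662), came closest to the threshold, and Adipoq was at -3.61 ± 1.77 (edgeR FDR = 0.228). At an unadjusted p below 0.05 there were 5 of 9 genes, beside 24.7% of all genes. The groups overlapped for every gene: the MaP R172H/- values of Adipoq ranged from 0.0440 to 32.8 CPM and the MaP -/- values from 0.0753 to 434 CPM, around medians of 0.353 and 3.66 CPM.

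In MaP R245W/- against MaP -/- tumors the fold changes were larger and again 0 of 9 were called, where 0% of 21452 genes were. Log2 fold changes ranged from -8.29 ± 2.48 for Lep to -1.75 ± 0.864 for Pparg, with a median of -6.40 against 0.0195 over all genes, and the lowest edgeR FDR among them was 0.36. Lep had at most 14 counts in any MaP R245W/- tumor, and Plin1 had 0 counts in 3 of the 5. Their fold changes are therefore ratios to values near 0. Here 8 of 9 genes had an unadjusted p below 0.05, beside 11.8% of all genes. This comparison and the one before it share the MaP -/- tumors, JM833-T1 among them, and were read side by side only.

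The 2 mutants against each other gave 0 of 9 called genes as well, where 6.19% of 22481 genes were. Cfd was at 4.35 ± 1.95 (edgeR FDR = 0.168), Plin1 at 4.53 ± 2.06, Cidec at 4.01 ± 1.96, Lep at 3.63 ± 2.07 and Adipoq at 2.76 ± 1.86 on the log2 scale, higher in MaP R172H/- tumors, of which YZ4 and YZ11 had the highest levels. Fabp4 at 0.47 ± 1.01, Lpl at 0.35 ± 0.985, Cd36 at 0.0041 ± 1.04 and Pparg at -0.0012 ± 0.722 lay within 1 standard error of 0. At an unadjusted p below 0.05 there were 2 of 9 genes, beside 25.9% of all genes.

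DESeq2, the tool named in the study's methods, made more calls. In MaP R172H/- against MaP -/- tumors it called 4 of the 6 genes to which it gave an adjusted p, Aqp7, Fabp4, Cd36 and Lpl, where it called 7.07% of genes, and in MaP R245W/- against MaP -/- tumors 4 of 6, Lep, Aqp7, Fabp4 and Cd36, where it called 1.22%. It gave no p for Adipoq, Plin1, Cidec and Cfd against MaP -/-, and in the MaP R172H/- fit it replaced an outlying count of these 4 genes. Its log2 fold changes there were -3.74 for Cfd, where edgeR had -1.99, and -4.56 for Plin1, while Adipoq (-3.57) and Cidec (-2.78) were close to edgeR. Between the mutants it called 1 of 10, Cfd (log2 fold change 4.37, DESeq2 adjusted p = 0.0211), where it called 8.04%. Without the 2 tumors of mouse JM833 the DESeq2 counts were 0, 0 and 3, the last being Plin1, Cidec and Cfd. The share of all genes that DESeq2 called in those fits was not computed. The JM833 tumors belong to neither mutant group, so between the mutants they enter only the shared spread and scaling.

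In edgeR, the direction of the contrast for Adipoq, Plin1, Cidec and Cfd turned without mouse JM833 in MaP R172H/- tumors and not in MaP R245W/- tumors. Without its 2 tumors, MaP R172H/- against MaP -/- log2 fold changes were above 0 for 6 of 9 genes: 1.61 ± 1.64 for Adipoq, 2.31 ± 1.64 for Plin1, 1.80 ± 1.80 for Cidec, 2.13 ± 1.60 for Lep, 2.20 ± 1.75 for Cfd and 0.55 ± 0.636 for Lpl. Fabp4 was then at -0.41, Cd36 at -0.32 and Pparg at -0.13, and 0 of 9 were called. In MaP R245W/- against MaP -/- tumors Plin1 went from -7.60 to -2.27, Adipoq from -6.43 to -1.19 and Fabp4 from -4.15 to -0.91, Cidec and Cfd also stayed below 0 at -2.25 and -2.20, Lpl stood at 0.17, and Lep no longer passed the filter on low counts. With YZ4 left out as well, Adipoq was at -0.17 and Fabp4 at -1.33 in MaP R172H/- against MaP -/- tumors. Aqp7, untested in edgeR, turned under DESeq2 without mouse JM833 in both comparisons. It went from -4.34 to 1.58 in MaP R172H/- and from -5.53 to 0.38 in MaP R245W/- against MaP -/- tumors, without a call after the change.

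**Figure D3:**
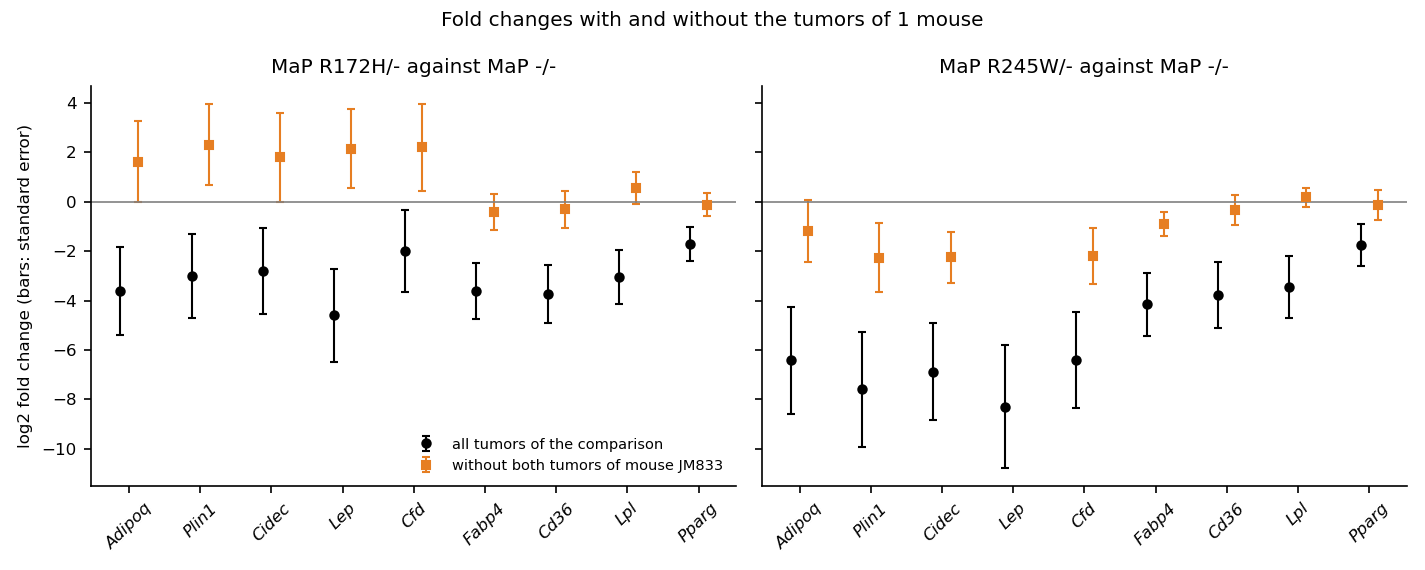
Log2 fold changes from edgeR of the 9 tested genes against MaP -/- tumors, with standard errors, in all tumors of a comparison (black) and without both tumors of mouse JM833 (orange). In MaP R172H/- tumors Adipoq goes from -3.61 to 1.61, and in MaP R245W/- tumors it goes from -6.43 to -1.19; Lep has no orange point on the right because it was not tested.

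In a wider list of 30 fat cell genes JM833-T1 was again the highest tumor, for 27 of the 30, and they summed to 12450 CPM there. Below it the order was another one: JM1133, which lacked the signal, was at 3655 CPM, YZ11 at 2789 CPM, YZ4 at 2706 CPM and JM833-T2, at place 7, at 2220 CPM. That order rests largely on Scd1 and Fasn, which were at 2578 and 660.8 CPM in JM1133 and 916.5 and 441.8 CPM in JM833-T2. In JM1133 Plin4 was at 2.18 CPM. Plin4 was at 1520 CPM in JM833-T1 and 160 CPM in JM833-T2, Car3, a carbonic anhydrase abundant in fat and muscle, at 2257 and 192 CPM, and Acvr1c, a receptor found on fat cells, at 66.1 and 5.81 CPM. Of the 28 tested in MaP R172H/- against MaP -/- tumors, 2 were called, both lower, a share near the 5.02% of all genes: Pde3b, a cyclic nucleotide phosphodiesterase that acts downstream of insulin (log2 fold change -2.86 ± 0.664, edgeR FDR = 0.0181), and Ghr, the growth hormone receptor (-1.94 ± 0.534, edgeR FDR = 0.0393). Pde3b was highest in JM779-T1, at 356 CPM beside 84.8 CPM in JM833-T1, and Ghr stood at 341 CPM in JM779-T1 beside 406 CPM in JM833-T1. Acvr1c, Plin4 and Car3 had the largest fold changes, -3.66, -3.64 and -3.32, and were not called. The list had 24 of 28 values below 0 with a median of -1.45, and without mouse JM833 it had 4 of 28 below 0 with a median of 0.69 and 1 gene called in each direction. In the other 2 comparisons 0 of 28 and 0 of 30 were called.

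Among brown and beige fat genes, Ucp1, the heat-producing channel that defines brown fat, was at most 0.878 CPM, in JM833-T2, and had 0 counts in 8 tumors. The 12 genes of this list summed highest in JM779-T1, at 218.7 CPM, of which Dio2, the only 1 of them highest in that tumor, made up 182.6 CPM; 0 of 8 tested were called in each comparison, and the largest fold changes in MaP R172H/- against MaP -/- tumors were -1.59 for Dio2, 1.51 for Tbx1 and 1.11 for Cidea. Among 16 genes of fat cell progenitors and fibroblasts, JM833-T1 was highest for 2, Zfp423 and Col15a1. Their sum was 2196 CPM in JM833-T1, at place 2 of 18 behind JM1126 at 2743 CPM, with YZ4 at 1278 CPM and JM833-T2 at 1201 CPM. In MaP R172H/- against MaP -/- tumors 3 of 15 tested were called beside 5.02% of all genes, all lower, Pdgfra (-2.49), Lum (-1.98) and Cebpb (-1.55), Dcn stood at -2.17 without a call, and 0 were called in MaP R245W/- against MaP -/- tumors.

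Other cells that make Fabp4, Cd36, Lpl or Pparg were measured beside them. The 14 endothelial genes summed to 961.7 CPM in JM1126 and 924.9 CPM in JM833-T1 and to between 256.8 and 564.2 CPM in the other 16 tumors, and 6 of 14 were highest in JM833-T1. Gpihbp1, the capillary anchor of lipoprotein lipase, was at 29.5 CPM in JM833-T1, 7.02 CPM in JM833-T2 and 5.63 CPM in YZ4. Of the 14, 1 was called in MaP R172H/- against MaP -/- tumors, Cldn5 (-1.36), beside 5.02% of all genes, while Rgcc was at -1.33 and Tek at -0.94. Pecam1 (-0.77, edgeR FDR = 0.0135) and Esam (-0.94, edgeR FDR = 0.0196) missed the fold threshold alone. Of the 14 values, 13 were below 0. The 13 macrophage genes summed highest in JM1233, at 4989 CPM, with JM833-T1 at 1499 CPM inside the range of the rest; in MaP R172H/- against MaP -/- tumors 3 of 12 tested were called beside 5.02% of all genes, all lower, Mrc1 (-2.03), Msr1 (-1.52) and Adgre1 (-1.04). Without mouse JM833 the calls were 2 lower and 1 higher of 16 for the progenitor and fibroblast list, 0 of 14 for the endothelial list and 2 lower of 12 for the macrophage list, beside 4.69% of all genes.

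Skeletal muscle genes summed to 7.68 CPM in JM833-T1, 8.44 CPM in JM833-T2 and 17.6 CPM in YZ4, and were highest in JM1233, at 1378 CPM. Of these, 0 of 8 tested were called in MaP R172H/- against MaP -/- tumors, with Myh4 at 1.85, Actn3 at 1.47 and Acta1 at 1.46, and 8 of 9 were called between the mutants, beside 6.19% of all genes, with MaP R172H/- the lower group. The 12 mammary epithelial genes, which mark the labelled tissue, were found in all tumors, from 176.0 CPM in JM779-T1 to 10360 CPM in YZ11. JM833-T1 stood at 1860 CPM and was the highest tumor for 0 of the 12. Krt5 at 2.94, Cldn3 at 2.45 and Krt19 at 2.13 were the largest differences in MaP R172H/- against MaP -/- tumors, and 0 of 12 were called.

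The 2 tumors of mouse JM833 parted in genes of B cells and lymph nodes. The 8 genes of that list summed to 542.9 CPM in JM833-T2, 25.5 CPM in JM833-T1 and at most 17.0 CPM in any other tumor. Cr2, a complement receptor of B cells and follicular dendritic cells, was at 197 CPM in JM833-T2 and 6.01 CPM in JM833-T1, and Ms4a1, which encodes CD20, was at 95.4 and 4.44 CPM. Ms4a1 (-4.55), Pax5 (-4.36) and Cr2 (-4.23) had the largest differences in MaP R172H/- against MaP -/- tumors, with 0 of 8 called. The part of lymph node tissue and of endothelium in the levels of the fat cell genes was not tested.

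**Figure D4:**
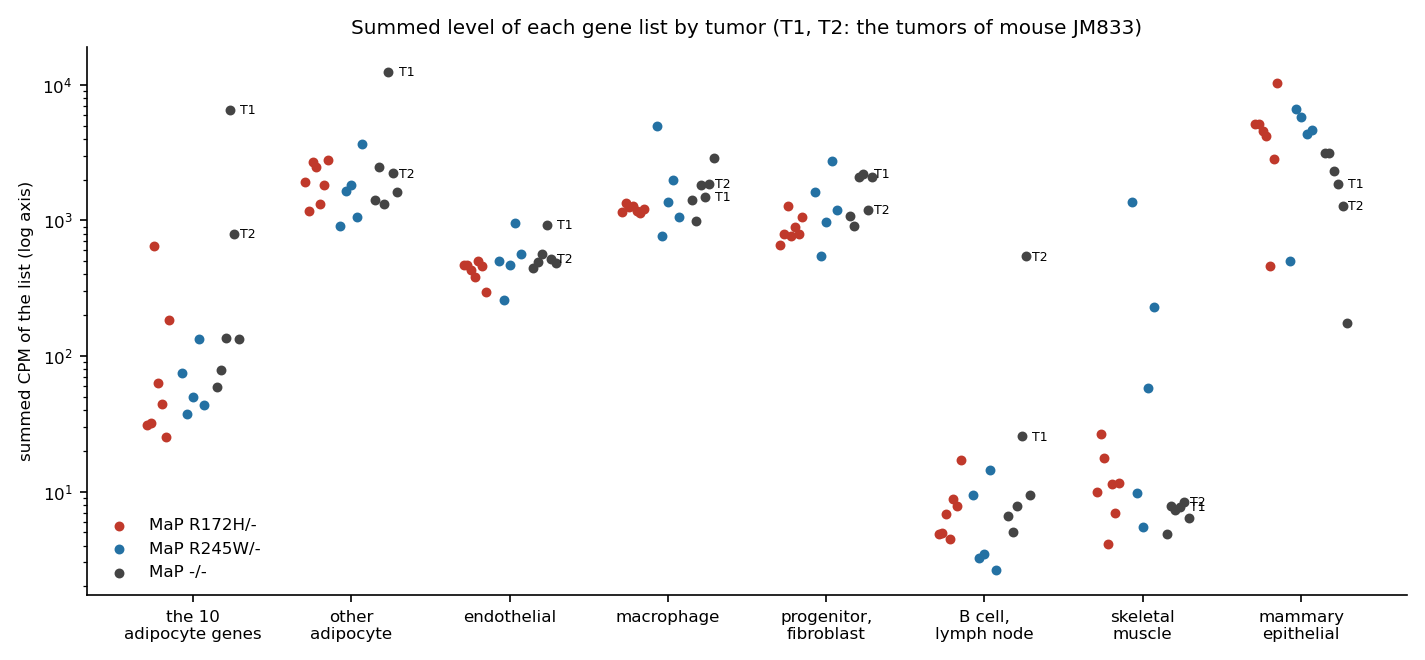
Summed CPM (log axis) of the 10 genes and of 7 other lists in each tumor, coloured by group, with the tumors of mouse JM833 marked T1 and T2. JM833-T1 is far above the rest for both fat cell lists, at 6499 and 12450 CPM, and JM833-T2 for B cell and lymph node genes, at 542.9 CPM.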

How the data were processed

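The authors extracted total RNA from tumor pieces, depleted ribosomal RNA and sequenced stranded libraries in pairs. Per the labels they used FastQC 0.11.9, STAR 2.7.10b, GRCm39 and RSEM 1.3.3, with GENCODE M34 as annotation. The deposited values are whole-number counts per gene without normalization; RSEM shares reads between similar genes, and whether the counts were rounded is not given in the sources used here. Of 57126 identifiers, 56620 matched GENCODE M39, which gave names, positions and exon lengths.

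Counts were tested with edgeR 4.0.16 in R 4.3.3 (TMM, filterByExpr, quasi-likelihood F test). Each mutant group was fitted with MaP -/- tumors alone, and the mutants were compared in a fit of all 18 tumors. CPM uses TMM library sizes. Genes were called at an FDR of at most 0.05 and an absolute log2 fold change of at least 1. Code was tested on simulated data. Alternatives were DESeq2 1.42.0, its size factors, no filter, other fold thresholds, tumors of 1 mouse summed, other fits and each tumor left out. Leaving out mouse JM833, alone, with YZ4 or under DESeq2, was chosen after seeing the data. So were the ratios to Adipoq at 100 or more counts and the side-by-side reading of T1 and T2 tumors.

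All 10 genes were named. From other lists the 3 tested genes with the largest fold change in MaP R172H/- against MaP -/- tumors were named, and called genes, defining markers and those most like Adipoq or Fabp4. Zfp423, Col15a1, Scd1, Fasn, Pecam1, Esam and Ghr's and Pde3b's levels were added after their values were seen. The genes and lists were chosen with earlier results of these data known. Columns without a tumor numbered 0. Depth was 23113578 to 37365062 counts per tumor, so genes under 1 CPM rest on few counts.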

Additional observations from a re-analysis of the deposited data

Results flagged for a closer look

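In 23 of 30 tests, 1 for each gene and group, the highest tumor lay farther from its nearest neighbour than Dixon's critical value at 95% allows for a group of its size. Chance gives about 1 in 20 for normally distributed values, a rate that does not hold for CPM values as skewed as these, and the tests share tumors. JM833-T1 stood apart in the MaP -/- group for all 10 genes, with a gap of 0.828 to 0.925 of the group's range: Adipoq 434 CPM, Plin1 292 CPM, Cidec 312 CPM, Lep 208 CPM, Cfd 986 CPM, Aqp7 40.5 CPM, Fabp4 1939 CPM, Cd36 1043 CPM, Lpl 1203 CPM and Pparg 42.8 CPM.

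YZ4 stood apart in the MaP R172H/- group for all 10 genes, with a gap of 0.633 to 0.868 of the range: Adipoq 32.8 CPM, Plin1 34.2 CPM, Cidec 43.6 CPM, Lep 7.92 CPM, Cfd 248 CPM, Aqp7 1.39 CPM, Fabp4 116 CPM, Cd36 53.7 CPM, Lpl 103 CPM and Pparg 9.34 CPM. In the MaP R245W/- group JM1126 stood apart for Lep at 0.448 CPM and Lpl at 48.2 CPM, and JM1233 for Adipoq at 3.55 CPM.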

How the results depend on the processing

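Counts of called fat cell genes were 0 in all 3 comparisons with other scaling, no filter, other fold thresholds and tumors of 1 mouse summed. Exceptions were the DESeq2 Wald test (4 in MaP R172H/- against MaP -/-, 4 in MaP R245W/- against MaP -/- and 1 between the mutants, and 3 between the mutants without mouse JM833) and all 18 tumors in 1 fit (2 in MaP R172H/- against MaP -/-, Fabp4 and Cd36). With all tumors, DESeq2 called 7.07%, 1.22% and 8.04% of all genes in these comparisons, in that order. The share of all genes called was not computed for the other exceptions or with 1 tumor left out. Leaving out any 1 tumor gave 0 to 2, 0 and 0: without YZ4 Fabp4 (-4.57, edgeR FDR = 0.036) and Cd36 (-4.55) were called, and without JM663-T1 Cd36 was (-3.98). Without JM833-T1, Plin1 (0.28), Cidec (0.096) and Cfd (0.86) turned above 0 in MaP R172H/- against MaP -/-, and without YZ4 they were at -4.92, -4.79 and -4.02. Leaving out both JM833 tumors turned Adipoq to 1.61, Plin1 to 2.31, Cidec to 1.80, Lep to 2.13, Cfd to 2.20 and Lpl to 0.55, and Lpl to 0.17 in MaP R245W/- against MaP -/-; with YZ4 left out too, Plin1 was at 0.42 and Cfd at 0.19. Between the mutants, where values near 0 have no firm sign, Pparg was at 0.022 without the filter, 0.017 with mice summed and 0.017 without mouse JM833, and Cd36 at -0.00083 in the 12 missense tumors alone; without YZ4 and mouse JM833 Fabp4 was at -0.42, Cd36 at -0.77 and Lpl at -0.42. Leaving out 1 tumor there gave -0.42 to 0.89 for Fabp4, -0.77 to 0.38 for Cd36, -0.42 to 0.82 for Lpl and -0.53 to 0.55 for Pparg; YZ4 set the lowest value of each. The causes of these changes beyond the tumors left out were not tested.

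Tumors with the adipocyte signal numbered 3, and 3 again with Adipoq alone, other scaling or total counts. A level of 1 CPM gave 7, 100 CPM gave 1, and the 6 genes treated as restricted gave 1 at 10 CPM. Leaving out 1 tumor gave 2 to 3, and 2 of 16 mice carried it. Size factors moved the median of all genes by at most 0.0175. No paired analysis was possible because the labels give no replicate number that tumors of different groups share. Lep could not be fitted in all leave-one-out settings.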
